A study of Mus musculus with 72 samples.

Results

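Translocations that carry long insertions, meaning 10 or more base pairs between the broken ends, were examined in 60 libraries of LAM-HTGTS, a sequencing assay that linearly amplifies from a bait break to map its translocations. Cas9 cuts a known bait site, and reads that begin in the bait and end elsewhere in the genome give the position, the strand and the sequence of each join. A translocation was a join to one of the 19 mouse autosomes other than that of the bait. The insertion was the stretch of the read that lay between the last base aligned to the bait and the first base aligned to the prey. The joins described here were chosen by that length alone. Of 593366 listed junctions, 169098 were translocations and 30454 of these had an insertion of any length. Long insertions were found in 11670 translocations, which was 6.90% of all translocations and 38.3% of those with an insertion. The longest insertion in the tables was 30 bp.

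The study cut mouse neural progenitor cells that lack Xrcc4 and p53 (genotype NestinCre+Xrcc4-/-p53-/-, derived from the single embryonic stem cell line Nxp010, with Cre driven by the Nestin promoter) and primary wild-type neural stem and progenitor cells from mouse brain. In the deficient cells the bait lay on chromosome 6, 8, 12 or 14, and in the wild-type cells on chromosome 6 or 14. Cells were given the solvent DMSO, the polymerase theta (Pol θ) inhibitor ART558 (5 µM for 72 h, then 2.5 µM for 24 h), aphidicolin (0.5 µM for 72 h, then 0.25 µM for 24 h) or both drugs. Deficient libraries of the theta collection numbered 2 with DMSO, 3 with ART558, 1 with aphidicolin and 3 with both for the chromosome 6 bait. The chromosome 8 bait had 3 libraries of each kind, and the chromosome 12 bait had 2, 3, 2 and 3 in the same order. A further 7 DMSO libraries with the chromosome 6 bait, and 4 DMSO and 3 aphidicolin libraries with the chromosome 14 bait, were deficient parental cells outside the theta collection. Wild-type cells gave 3 libraries with aphidicolin and 4 with both drugs for chromosome 6, and 4 of each for chromosome 14, so every wild-type library had been exposed to aphidicolin. The labels do not say whether libraries of a group came from separate cultures. The study calls its wild-type repeats biological, and its deficient repeats technical in one place and biological in another. P-values therefore measure the spread between libraries, which may be technical, and all deficient libraries share 1 cell line. Junction tables hold no expression values, so the labelled cell types were not tested here.

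XRCC4 acts with DNA ligase IV in non-homologous end joining, and cells without it depend on other joining routes. Pol θ aligns short homologies between broken ends and extends them, and it can copy a stretch of nearby DNA into the join before the ends are sealed, which leaves a templated insertion. Aphidicolin slows the replicative polymerases and raises breakage in recurrent DNA-break clusters (RDCs), which lie in very long genes expressed in neural cells.

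The libraries held 28 to 8194 translocations (median 2550.5) and 2 to 614 long insertions (median 181). Joins with 2 unusual features were frequent among the long insertions, and drug and genotype comparisons are also given without them wherever that changed the call or the direction. The first was a prey whose first 20 bases held 15 or more G (a G-run prey), and the second was a read whose inserted bases and prey bases lay next to each other in the genome beside the bait cut (a bait-continuous read). The chromosome 6 library 3 of wild-type cells with aphidicolin and chromosome 6 library 1 of wild-type cells with both drugs stood apart from their groups, the former with a long-insertion share of 25.8% and 71.2% G-run preys, the latter with 39.8% of its insertions matching the bait region. The chromosome 8 library 3 with ART558 held 28 translocations and 2 long insertions, and gave a share but no mean length or bait loss. The libraries came from 11 sequencing runs according to their read names, and all wild-type libraries shared a run that held no deficient library, so genotype and run cannot be told apart. Genotype cannot be told apart from cell source either, since wild-type cells were primary and deficient cells were derived from embryonic stem cells. On chromosome 14 the wild-type libraries were of the theta collection and the deficient ones were not.

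The guide sites are shown first because every insertion is read against the cut they make. The protospacer is in lower case and the adjacent motif (PAM) in capitals. Each protospacer occurs once on its own bait chromosome in the mouse genome GRCm38 (mm10), and the other chromosomes were not searched for it.

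guide chromosome 6: gagggttggaaatgctcgtaTGG
guide chromosome 8: gtcgaccatatgctaatcttAGG
guide chromosome 12: attccgccaaccctcgagatAGG
guide chromosome 14: ggcttagttatagtaggggcTGG

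The guide sites lie at chr6:70950103-70950125 (minus strand), chr8:59477698-59477720 (minus strand), chr12:12994038-12994060 (plus strand) and chr14:83268830-83268852 (plus strand). None lies inside a protein-coding gene. The nearest ones are Foxi3, a forkhead transcription factor gene 6.42 kb away, BC030500 at 563 kb, Mycn, a proto-oncogene transcription factor gene at 52.1 kb, and Pcdh17, a protocadherin gene at 1175 kb.

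The following 6 reads are the longest of their kind among deficient DMSO libraries, and they show where inserted bases can come from. Insertions are in capitals, with up to 25 bait bases before and 20 prey bases after them in lower case. Each genome line gives the bait region in the direction of the matching bases, with the same bases in capitals.

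read A: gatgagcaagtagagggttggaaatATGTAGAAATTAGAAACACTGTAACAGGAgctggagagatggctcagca
genome A: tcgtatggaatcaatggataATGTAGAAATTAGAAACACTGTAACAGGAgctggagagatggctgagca
read B: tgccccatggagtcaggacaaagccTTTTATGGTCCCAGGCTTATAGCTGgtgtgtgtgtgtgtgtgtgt
genome B: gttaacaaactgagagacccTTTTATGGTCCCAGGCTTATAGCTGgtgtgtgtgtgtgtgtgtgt
read C: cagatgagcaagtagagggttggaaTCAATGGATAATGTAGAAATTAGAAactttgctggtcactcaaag
genome C: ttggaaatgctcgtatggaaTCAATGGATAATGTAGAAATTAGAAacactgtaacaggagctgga
read D: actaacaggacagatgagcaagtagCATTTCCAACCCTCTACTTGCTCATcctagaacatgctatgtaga
genome D: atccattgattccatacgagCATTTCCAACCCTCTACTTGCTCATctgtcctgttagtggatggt
read E: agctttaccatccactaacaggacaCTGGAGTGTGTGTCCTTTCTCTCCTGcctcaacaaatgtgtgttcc
read F: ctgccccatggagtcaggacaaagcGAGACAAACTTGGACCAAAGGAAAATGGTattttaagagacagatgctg

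Read A was cut on chromosome 6, and its 29 inserted bases are those 19 to 47 bases past the cut (chr6:70950062-70950090). Its prey was placed on chromosome 7 at 25424228, but its prey bases also continue the bait region almost base for base, as the genome line shows. Read B, from chromosome 12, has 25 inserted bases from 215 to 239 bases past the cut (chr12:12994269-12994293) followed by a gt repeat that both the bait region and the listed prey on chromosome 16 hold. These are bait-continuous reads, and in them the inserted bases together with the prey can be read as 1 unbroken piece of the bait region. Read C has 25 bases from 9 to 33 bases past the cut (chr6:70950076-70950100) and then a prey on chromosome 10 that does not continue there. Read D holds 25 bases of the bait side in inverted orientation, with 3 bases between them and the cut (chr6:70950112-70950136), joined to chromosome 11. In read E the 26 inserted bases lie at chr12:29562614-29562639 on the minus strand, 57 bases from the prey junction at 29562696. In read F the 29 inserted bases match chr16:30640912-30640940, which is neither the bait nor the prey chromosome (chromosome 13).

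Insertions became rarer with length, and the decline was slow and uneven above 10 bp. Of the long insertions, 34.1% were 10 to 14 bp, 30.9% were 15 to 19 bp, 22.9% were 20 to 24 bp and 12.01% were 25 to 30 bp. The mean length was 17.6 bp and the median 17 bp. In deficient cells 2.74% of translocations had a 1-bp insertion, 0.449% had 10 bp, 0.372% had 20 bp and 0.0862% had 30 bp. In wild-type cells the same lengths made up 4.54%, 0.610%, 0.399% and 0.131%, with rises between them to 1.31% at 7 bp, 0.811% at 14 bp and 0.734% at 16 bp. The rises at 7 and 16 bp were those of libraries with both drugs (1.76% and 0.838%, against 0.696% and 0.593% with aphidicolin alone). The rise at 14 bp was present with aphidicolin alone (1.03%) and with both drugs (0.651%). The insertion length chose these joins, so the values on either side of 10 bp are a description. Insertions of 8, 9, 10 and 11 bp numbered 1065, 946, 807 and 870, with mean bait loss of 30.2, 30.1, 31.6 and 28.9 bases and G-run preys in 12.8%, 16.9%, 16.0% and 14.1%.

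**Figure D1:**
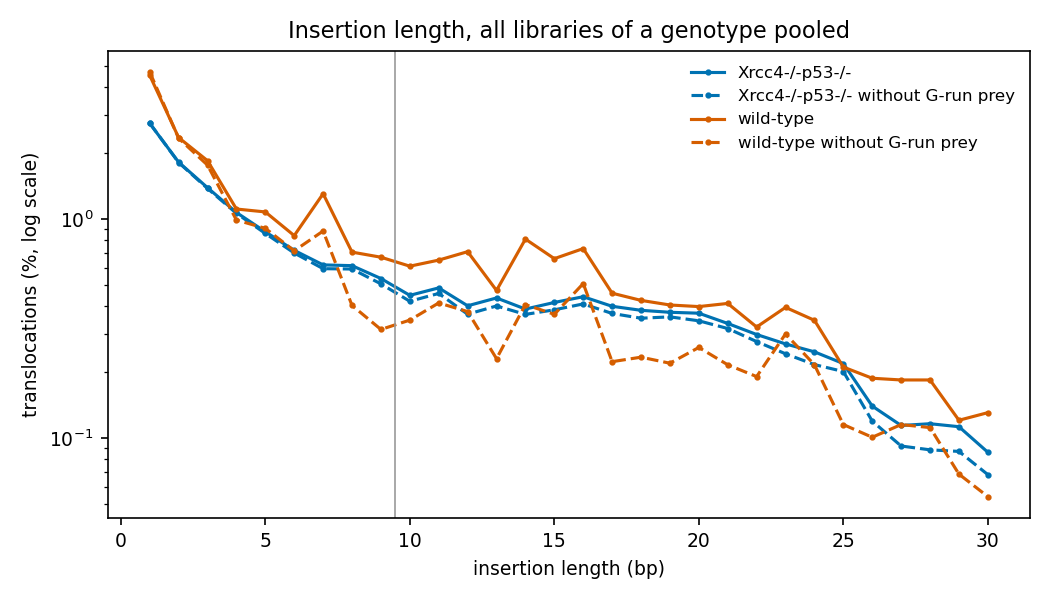
Percent of translocations (log scale) with an insertion of each length from 1 to 30 bp, with all libraries of a genotype pooled, as solid lines for all joins and dashed lines without G-run preys. The vertical line marks the limit of 10 bp, and both genotypes fall steeply from 1 to 4 bp and more slowly and unevenly above that. Pooled wild-type cells are higher at 7 bp (1.31%) than at 5 bp (1.08%), a rise of the libraries with both drugs. They are also higher at 14 bp (0.811%) than at 10 bp (0.610%).

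The insertions were diverse. There were 10214 distinct inserted sequences, of which 688 were seen more than once and 222 in more than 1 library, and 37 combinations of junction and insertion recurred between libraries. The long insertions came from 10828 distinct read sequences.

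G-run preys made up 2055 of the long insertions (17.6%) and 1268 of the other translocations (0.805%). Read by library, the mean share in deficient cells was 15.2% among long insertions against 0.845% among the rest, higher in 38 of 45 libraries, and in wild-type cells 43.7% against 3.54%, higher in 15 of 15. Both differences passed a two-sided sign-flip permutation test over libraries (adjusted p = 0.0002 and 0.0003), with the measure chosen after the data were seen. The share differed widely between groups of libraries. It was at most 0.186% in the 7 deficient chromosome 6 DMSO libraries outside the theta collection, whose read names carry another instrument code, and its median was 13.8% over the other 53 libraries. Those 53 ranged from 0% to 100%. Among them the deficient chromosome 12 libraries were also low, at most 2.05% with DMSO, 1.33% with aphidicolin and 2.11% with ART558. Of the G-run preys, 96.0% lay in soft-masked sequence, the repeats and simple sequence that the genome file marks in lower case.

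The preys of long insertions lay more often in soft-masked sequence also without the G-run preys. In deficient cells the mean share was 53.1% for long insertions and 29.2% for other translocations, higher in 45 of 45 libraries, and 44.9% against 29.2% without G-run preys, higher in 42 of 44. In wild-type cells it was 83.7% against 50.7%, higher in 15 of 15 libraries, and 71.7% against 49.2% without G-run preys. Among bait-continuous reads 92.0% of preys were soft-masked. The differences passed the two-sided sign-flip permutation test with and without G-run preys (adjusted p = 0.0002 in deficient and 0.0003 in wild-type cells with them).

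Without G-run preys and bait-continuous reads, and with each read sequence counted once, 8069 long insertions were left.

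With the chromosome 6 bait, deficient cells in DMSO had a long-insertion share of 10.5% and 9.67% of translocations in the theta collection (mean 10.1 ± 0.61, SD, n = 2) and of 5.24% to 7.54%, with a mean of 6.31 ± 0.89 (SD, n = 7), in the other set. These 2 sets of the same cells, drug and bait did not overlap. The chromosome 8 bait gave 2.92%, 2.86% and 4.06%, and the chromosome 12 bait 4.51% and 4.61%. With the chromosome 14 bait the shares were 9.66%, 19.55%, 8.87% and 7.60%. Chromosomes 8 and 12 thus lay below both sets of chromosome 6 and below chromosome 14. The share differed between the 4 baits in DMSO by a permutation test on the sum of squares between baits over 18 libraries (p = 0.0209), and the adjusted p of 0.0522 missed the threshold. After both kinds of join were left out and each read was counted once, the permutation test gave p = 0.0982, and the chromosome 14 mean fell from 11.4% to 4.76%.

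**Figure D2:**
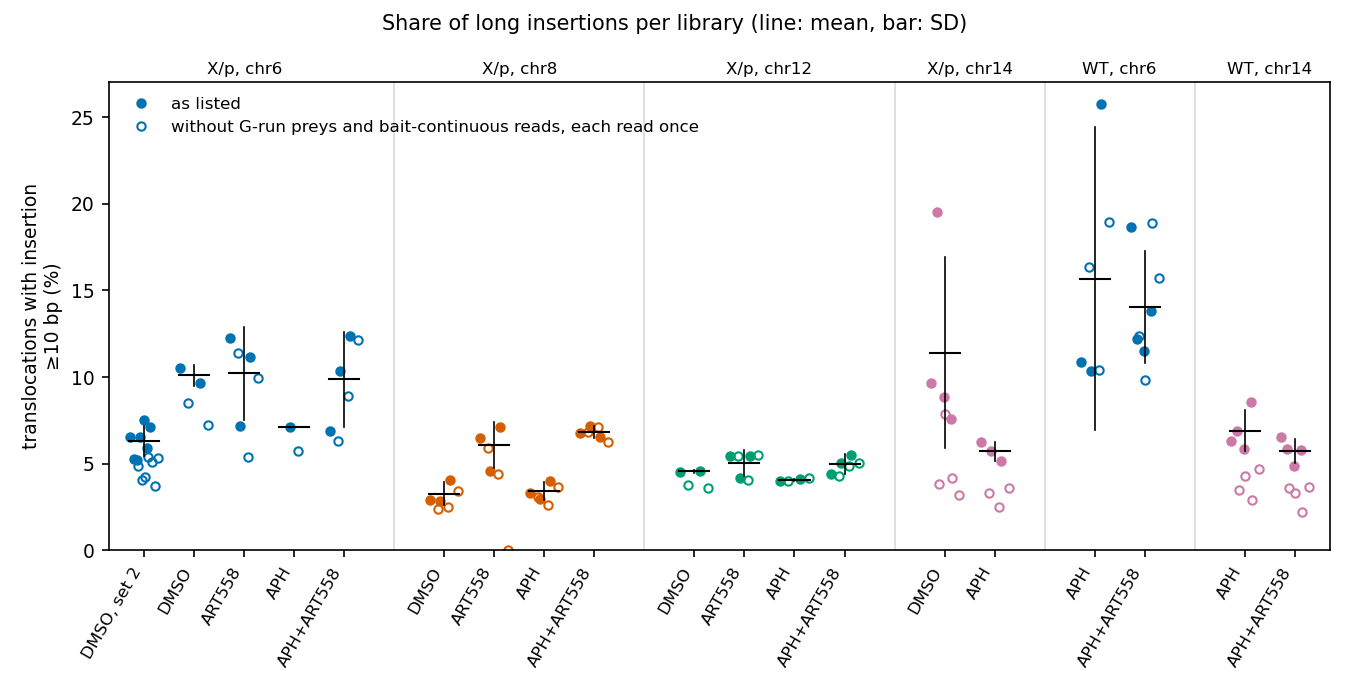
Percent of translocations with an insertion of 10 bp or more in each library, by genotype, bait and drug, as listed (filled) and without G-run preys and bait-continuous reads with each read counted once (open). X/p is Xrcc4-/-p53-/-, set 2 is the set of 7 DMSO libraries outside the theta collection, lines are means and bars SD of the filled points. The wild-type chromosome 6 libraries reach the highest shares, up to 25.8%.

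With ART558 alone the share of long insertions changed by less than the spread between libraries as counted here, but passed the test under several other counts. On chromosome 6 it was 12.3%, 7.20% and 11.2%, which encloses the 2 DMSO values. With the chromosome 8 bait it was 6.48%, 4.57% and 7.14%, all above the DMSO libraries (mean 6.07 ± 1.34 against 3.28 ± 0.68, SD, n = 3 each). With the chromosome 12 bait it was 5.45%, 4.16% and 5.47% and overlapped DMSO. Averaged over the 3 baits the share was 1.12 percentage points higher than in DMSO, which an exact permutation test of libraries within baits did not separate from the spread (two-sided p = 0.158, adjusted p = 0.243). Within sequencing runs the difference was 0.29 (exact p = 0.76), with chromosome 8 left out since its DMSO and ART558 libraries came from different runs. The difference was 0.68 for insertions of 20 bp or more (exact p = 0.04), 1.85 as percent of all junctions (exact p = 0.001), 2.10 with the other chromosome 6 DMSO libraries added (exact p = 0.0039) and 1.92 without bait-continuous reads (exact p = 0.018). It was 0.18 without G-run preys (exact p = 0.823) and 1.007 without both kinds and with each read once (exact p = 0.302). Both of these counts put the chromosome 8 ART558 library of 28 translocations at 0, and without that library they were 0.76 (exact p = 0.38) and 1.58 (exact p = 0.076).

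In cells under aphidicolin, the share was higher with ART558. The chromosome 8 libraries went from 3.29%, 2.99% and 4.02% to 6.77%, 7.19% and 6.55% with both drugs. The chromosome 12 libraries went from 4.02% and 4.10% to 4.40%, 5.06% and 5.52%. Neither pair of groups overlapped. The single chromosome 6 aphidicolin library had 7.11%, inside the range of the libraries with both drugs (6.91%, 10.4% and 12.4%). The mean difference was 2.37 percentage points (two-sided exact permutation p = 0.0075, adjusted p = 0.0214), and 2.54 without the 2 unusual kinds of join and with each read once (exact p = 0.0025). The call was lost when same-numbered libraries were taken as pairs, as given further on. The chromosome 8 and 12 groups lay in different runs, so drug and run cannot be told apart for these baits. Within 1 run stood the chromosome 6 libraries, with a difference of 2.76 that could not have passed a test with 1 library on one side (exact p = 1).

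Adding aphidicolin to ART558 moved the share by 0.13 percentage points (two-sided exact permutation p = 0.848).

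Aphidicolin alone went with a lower share of translocations, but not of all junctions. The chromosome 6 library had 7.11% against 10.5% and 9.67% in DMSO, and the chromosome 12 libraries 4.02% and 4.10% against 4.51% and 4.61%. The chromosome 14 libraries had 6.25%, 5.72% and 5.18%, all below the 4 DMSO libraries. With the chromosome 8 bait the groups overlapped. The mean over 4 baits fell by 2.26 percentage points (two-sided exact permutation p = 0.0054, adjusted p = 0.0214), and by 2.19 within runs (exact p = 0.0122). As percent of all junctions the difference turned to 0.47 (exact p = 0.026), and with the other chromosome 6 DMSO libraries it was −1.52 (exact p = 0.0918). The chromosome 14 bait carried much of it, since the fall without that bait was 1.11 (exact p = 0.178). Bait-continuous reads were a smaller share with aphidicolin, as given further on, whereas G-run preys did not move one way. Chromosome 14 preys were G-runs in 56.7 ± 6.60% of long insertions in DMSO (SD, n = 4) and 42.5 ± 13.4% with aphidicolin (n = 3), and these groups overlapped. On chromosome 6 they were 10.5 ± 0.11% in DMSO (n = 2) and 21.2% in the aphidicolin library. With both kinds left out and each read once, the share fell by 0.74 (exact p = 0.251), and the direction differed between baits. It went from 3.69% to 4.09% on chromosome 12, where the groups did not overlap, and from 2.76% to 3.13% on chromosome 8, but from 7.87% to 5.75% on chromosome 6 and from 4.76% to 3.14% on chromosome 14.

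Wild-type chromosome 6 libraries had higher shares than the deficient one under aphidicolin, at 10.9%, 10.4% and 25.8% against 7.11%. With both drugs they had 18.7%, 12.2%, 11.5% and 13.8%, against 6.91%, 10.4% and 12.4%, so that these groups overlapped. With the chromosome 14 bait the wild-type shares of 6.32%, 6.86%, 5.87% and 8.56% overlapped those of deficient cells. Over the 3 matched groups of bait and drug, deficient cells were 4.64 percentage points lower (two-sided exact permutation p = 0.0065, adjusted p = 0.0214), and the call was lost for insertions of 20 bp or more (−0.88, exact p = 0.149). Taking same-numbered libraries as pairs also lost it. They were 2.96 points lower without wild-type library 3 (chromosome 6, aphidicolin) and 2.68 lower without the single deficient chromosome 6 aphidicolin library. Counting each read once raised wild-type chromosome 6 shares to 19.02%, 17.4% and 29.7% with aphidicolin and to 22.6%, 16.8%, 22.2% and 20.03% with both drugs, and the difference between genotypes was then −8.95 (exact p = 0.000408, the smallest possible). Without G-run preys the difference was −1.43 (exact p = 0.122), and without both kinds and with each read once it was −5.10 (exact p = 0.0155). G-run preys reached 71.2% of long insertions in wild-type library 3 and 21.2% in the deficient chromosome 6 aphidicolin library. Their part in the difference between genotypes was not tested.

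In wild-type cells no change with ART558 was detected, both drugs minus aphidicolin giving −1.38 percentage points (two-sided exact permutation p = 0.602). Without wild-type library 3 of the chromosome 6 aphidicolin group it was 1.14.

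Insertions were somewhat longer with both drugs than with aphidicolin. The library means were 18.1, 18.6 and 18.3 bp against 17.3 bp with the chromosome 6 bait, and 18.0, 18.1 and 17.6 bp against 17.2 and 17.5 bp with the chromosome 12 bait. On chromosome 8 they were 20.1, 18.2 and 17.5 bp against 17.1, 17.9 and 16.7 bp, so that these groups overlapped. The mean difference was 0.96 bp (two-sided exact permutation p = 0.0075, adjusted p = 0.0214), with the same limit that chromosomes 8 and 12 differed in run. ART558 alone gave 0.39 bp more than DMSO (exact p = 0.098, adjusted p = 0.178). Deficient cells had insertions 0.81 bp longer than wild-type cells (exact p = 0.0008, adjusted p = 0.0163), but 0.13 bp without G-run preys (exact p = 0.616). In wild-type cells ART558 changed the length by −0.15 bp (exact p = 0.446).

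More of the bait end was missing in long-insertion joins after ART558. Bait loss is the distance in bases between the end of the bait alignment and the cut. On chromosome 6 the library means were 15.3 and 16.1 bases in DMSO and 21.8, 23.3 and 22.9 with ART558. With the chromosome 8 bait they were 17.8, 14.1 and 17.4 bases against 38.4 and 46.0. With the chromosome 12 bait they were 41.4 and 35.0 bases against 53.4, 53.5 and 53.5. At none of the 3 baits did the groups overlap. The mean difference was 16.0 bases (two-sided exact permutation p = 0.0020, the smallest that 1000 regroupings allow, adjusted p = 0.0167), and 15.1 without both unusual kinds and with each read once (exact p = 0.0020). Within runs, which leaves chromosomes 6 and 12, it was 11.1 bases (exact p = 0.02).

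The other translocations of the same libraries moved likewise. Their library means went from 13.98 and 15.1 bases to 22.6, 19.2 and 22.7 on chromosome 6. They went from 44.3 and 41.3 to 55.3, 56.4 and 57.1 on chromosome 12, and on chromosome 8 from between 16.7 and 18.3 to between 37.7 and 57.2 bases.

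Aphidicolin libraries lay near the ART558 values with the chromosome 12 bait, at 52.7 and 50.9 bases, and above DMSO with the chromosome 8 bait, at 21.5, 23.3 and 23.6. On chromosome 14 the groups overlapped, at 61.1 ± 9.79 in DMSO (SD, n = 4) and 59.5 ± 2.44 with aphidicolin (n = 3), but not without the unusual joins and with each read once, at 27.5 ± 2.39 (n = 3) and 42.2 ± 4.03 (n = 3). Aphidicolin against DMSO was not tested for bait loss over all baits. Adding ART558 to aphidicolin raised the loss to 28.2, 47.9 and 44.1 bases on chromosome 8, with 22.3 ± 2.68 against 22.0 on chromosome 6 and 52.0 ± 1.30 against 51.8 on chromosome 12. The mean difference of 5.96 bases did not pass (two-sided exact permutation p = 0.07, adjusted p = 0.14). In wild-type cells the mean loss was 18.3 ± 6.52 with aphidicolin and 19.1 ± 9.29 with both drugs on chromosome 6 (SD, n = 3 and 4), and 86.9 ± 1.32 and 82.6 ± 4.18 on chromosome 14 (n = 4 each), a mean difference of −1.78 bases (exact p = 0.601). With the chromosome 14 bait, long insertions of wild-type cells had lost more of the bait than their other translocations in all 8 libraries. The same was seen in all 4 libraries of deficient DMSO cells and in 2 of 3 of deficient cells with aphidicolin. This did not hold without the unusual joins and with each read once. In the 3 deficient DMSO libraries with enough insertions left the means were then 29.0, 24.7 and 28.7 bases, below the 45.3, 42.1 and 38.9 of the other translocations as listed. In the wild-type libraries 1 to 3 with both drugs they were 69.1, 63.4 and 65.3, below 70.1, 70.2 and 72.2, and in the other 5 wild-type libraries they stayed above. On chromosome 12 they had lost less than the others in the 8 libraries with DMSO, ART558 or both drugs, and more in the 2 with aphidicolin.

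**Figure D3:**
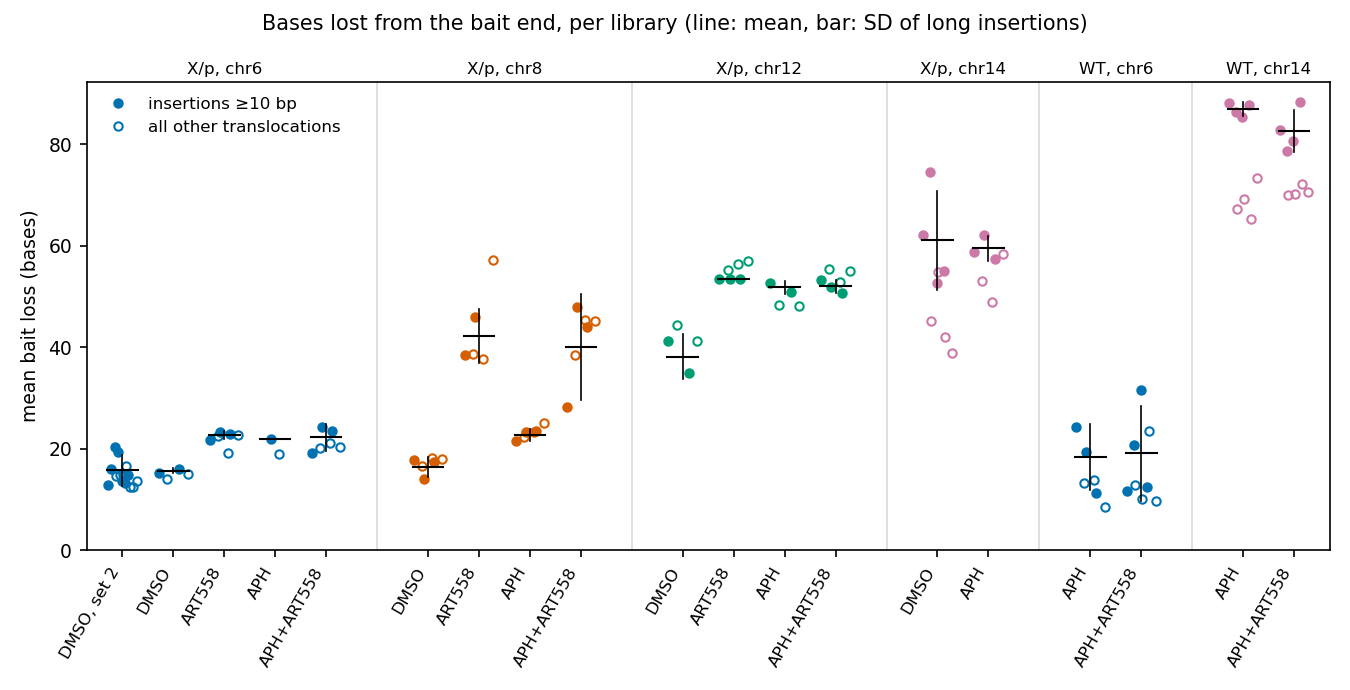
Mean number of bait bases missing in each library, for translocations with insertions of 10 bp or more (filled) and for all other translocations (open), by genotype, bait and drug. Lines are means and bars SD of the filled points. With the chromosome 6, 8 and 12 baits both kinds of point lie higher with ART558 than with DMSO.

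Few long-insertion joins kept an intact bait end, and in deficient cells this was similar for joins with shared bases (micro-homology). Among deficient chromosome 6 joins, 26.5% of those joined directly, without insertion or shared bases, kept the whole bait end, against 9.19% of those with long insertions and 9.51% of those with 1 to 9 bp. In wild-type cells the shares were 50.5%, 19.4% and 34.3%. On chromosome 12, 4.67% of direct joins and 2.74% of long insertions had no loss. Micro-homology joins of deficient cells had no loss in 12.2% on chromosome 6, 6.25% on chromosome 8, 3.18% on chromosome 12 and 4.71% on chromosome 14. Long insertions had 6.49% on chromosome 8 and 4.92% on chromosome 14. In wild-type cells micro-homology joins had 32.4% on chromosome 6, and 6.82% on chromosome 14 against 3.16% of long insertions. These values sort the joins by the insertion itself and are given as a description.

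Many insertions matched the DNA around the bait cut. Of 9993 insertions of 12 bp or more, 14.7% held a run of 12 or more bases found within 1 kb of the cut in either orientation. Windows of the same size 100 kb to either side gave 1.54% and 0.811%. In single groups such a window reached 7.51% (deficient, chromosome 12, DMSO) and 6.72% (wild-type, chromosome 14, aphidicolin). The prey side was searched in the same way, and 10.5% of insertions had a run within 1 kb of the prey junction against 0.951% in the shifted window. No run at either locus was found for 75.6%. Insertions were not compared with the sequence of the Cas9 plasmids. Of all long insertions 1.08% shared 10 bases with the adapter oligonucleotides, with up to 5.23% in a group (wild-type, chromosome 14, aphidicolin), and 0.720% held 10 bases of telomere repeat, with up to 6.70% (wild-type, chromosome 6, both drugs).

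The share of insertions that matched the bait region was lower with ART558. On chromosome 6 it was 23.5% and 29.5% in DMSO and 13.9%, 3.16% and 11.4% with ART558. With the chromosome 12 bait it was 25.2% in both DMSO libraries and 8.12%, 8.33% and 6.79% with ART558. The shifted windows of that bait together were lower with ART558 too, at 8.40% and 8.41% in DMSO and 1.28%, 0.833% and 0.452% with ART558, whereas on chromosome 6 they gave 0.769% and 0.901% against 0.535%, 1.58% and 0.880%. With the chromosome 8 bait it was 18.8%, 11.1% and 17.9% in DMSO and 9.09% and 9.80% with ART558, from 16 to 51 insertions a library. No ART558 library reached the lowest DMSO library of its bait. The mean difference was −13.6 percentage points (two-sided exact permutation p = 0.0020, the smallest possible, adjusted p = 0.0067 over the 20 tests added after the data were seen), and within runs −17.2 (exact p = 0.02).

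The fall was smaller but still past the threshold without the unusual joins. Without bait-continuous reads the difference was −7.19 percentage points (exact permutation p = 0.0020), and without both kinds and with each read counted once it was −7.96 (exact p = 0.0020). In that last count chromosome 6 went from 20.2 ± 1.56 to 9.30 ± 4.83%, chromosome 8 from 17.1 ± 4.94 to 10.4 ± 0.27% and chromosome 12 from 14.2 ± 0.28 to 7.89 ± 1.10% (SD over 2 or 3 libraries).

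It was lower with ART558 also under aphidicolin. The share was 17.9% and then 12.6%, 8.54% and 12.1% with the chromosome 6 bait. It was 16.7%, 11.8% and 11.9%, then 10.5%, 6.05% and 4.17%, with the chromosome 8 bait. It was 10.3% and 13.9%, then 2.53%, 7.33% and 5.33%, with the chromosome 12 bait. The groups of each bait did not overlap, and the mean difference was −6.79 percentage points (two-sided exact permutation p = 0.0025, the smallest possible, adjusted p = 0.0071), in part between runs as for the share itself. Within the run that holds the chromosome 6 libraries it was −6.82, which 1 library against 3 could not test (exact p = 0.5). Between ART558 and both drugs the difference was −1.22 (exact p = 0.432).

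With aphidicolin alone the bait-locus share fell by 6.69 percentage points (two-sided exact permutation p = 0.0095, adjusted p = 0.02), and within runs it fell by 6.99 (exact p = 0.0063). Without bait-continuous reads it fell by 1.56 (exact p = 0.204), and with both kinds left out and each read once it fell by 4.05 (exact p = 0.0181). The chromosome 14 bait carried most of that last fall, with −10.8, against −1.06 on chromosome 6, −2.05 on chromosome 8 and −2.29 on chromosome 12, and the groups of chromosomes 6 and 8 overlapped.

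Wild-type insertions seldom matched the bait region. The libraries had 5.26%, 3.77% and 0.28% with aphidicolin on chromosome 6, and 1.11% to 5.41% on chromosome 14, which was below the 6.72% and 6.66% of a shifted window there. With both drugs on chromosome 6 the values were 39.8%, 6.58%, 4.84% and 1.40%, and library 1 alone made the group high. Deficient cells were 5.95 percentage points above wild-type cells (two-sided exact permutation p = 0.211), and 8.91 above without that library (exact p = 0.0007). ART558 changed the wild-type share by 5.20 (exact p = 0.291), or by 0.76 without that library. Without the unusual joins and with each read once, chromosome 6 libraries had 0% to 1.41% with aphidicolin and 2.56% to 31.9% with both drugs. On chromosome 14 the groups overlapped in that count, at 0% to 4.92% and 2.27% to 5.56%.

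**Figure D4:**
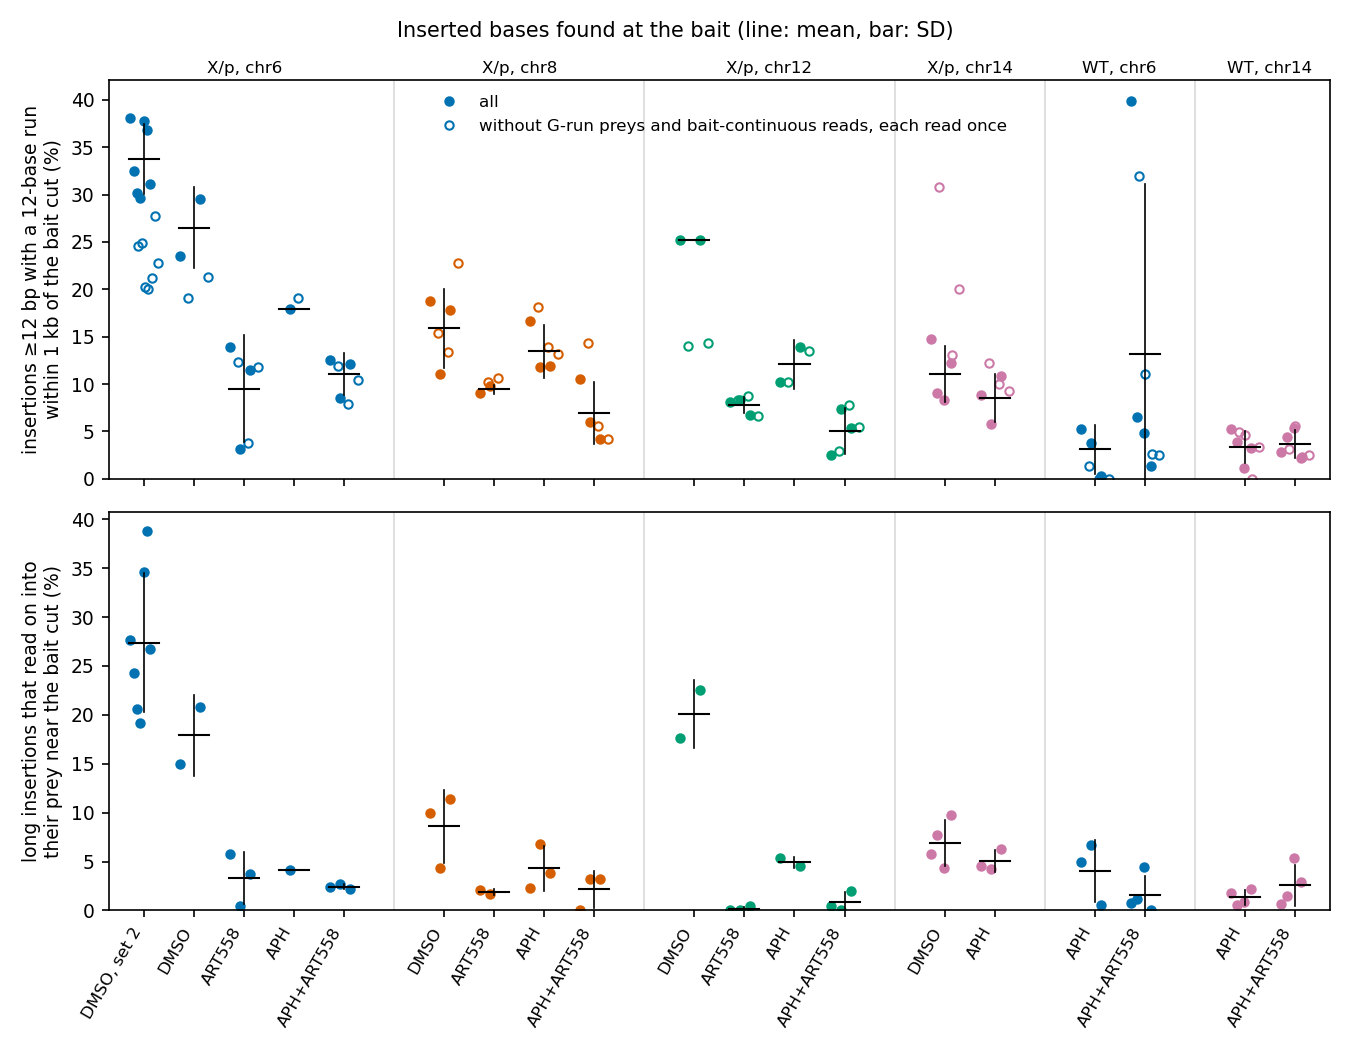
Top, percent of insertions of 12 bp or more with a run of 12 bases found within 1 kb of the bait cut, for all joins (filled) and without G-run preys or bait-continuous reads with each read once (open). Bottom, percent of long insertions that are bait-continuous reads. Each point is a library, lines are means and bars SD, and X/p is Xrcc4-/-p53-/-. ART558 libraries lie below DMSO libraries of the same bait in both panels.

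Bait-continuous reads, such as reads A and B, made up 995 of the long insertions (8.53%). The same search 100 kb to either side found 94 and 105. In DMSO they were 17.7% of long insertions with the chromosome 6 bait in the theta collection and 26.7% in the other set, 20.7% with chromosome 12, 8.97% with chromosome 8 and 6.47% with chromosome 14. With ART558 they were 3.42%, 0.153% (1 of 653) and 1.83% with chromosomes 6, 12 and 8.

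By library the chromosome 6 values were 14.98% and 20.8% in DMSO and 5.78%, 0.47% and 3.68% with ART558, and the groups of no bait overlapped. The mean difference was −13.7 percentage points (two-sided exact permutation p = 0.0020, adjusted p = 0.0067), and within runs −17.3 (exact p = 0.02). With aphidicolin the share fell by 8.78 (exact p = 0.0037, adjusted p = 0.0091), and within runs it fell by 8.94 (exact p = 0.0030). Both drugs minus aphidicolin gave −2.64 (exact p = 0.01, adjusted p = 0.02), with −1.67 in the chromosome 6 run (exact p = 0.5), and no difference was detected between both drugs and ART558 (0.02, exact p = 0.962). Wild-type cells gave 12 such reads with aphidicolin and 10 with both drugs on chromosome 6. The shifted windows there gave 10 and 9 with aphidicolin and 18 and 17 with both drugs, which is close to or above the count at the bait. On chromosome 14 there were 9 and 17, against 4 and 0 and against 7 and 5. They were 1.38% to 2.40% of long insertions in each wild-type group, and both drugs against aphidicolin gave −0.61 (exact p = 0.602). Deficient minus wild-type cells gave 1.54 (exact p = 0.173, adjusted p = 0.288). Whether such a read joins 2 pieces, with the prey placed at a repeat elsewhere, or 3 cannot be told apart from these tables.

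In deficient cells the matching runs had 2 main arrangements, and most runs of these arrangements lay close to the cut. The following counts leave out G-run preys and bait-continuous reads and take each read once. In deficient cells on chromosome 6, 261 runs lay on the bait side in inverted orientation, as in read D, and 205 lay past the cut in direct orientation, as in read C. The reverse arrangements were fewer, with 66 direct runs on the bait side and 25 inverted runs past the cut. With the chromosome 12 bait the 4 counts were 55, 73, 13 and 10, and with the chromosome 8 bait 26, 22, 7 and 2. Thus the same 2 arrangements led at each of these 3 baits when all drugs were pooled. DMSO libraries supplied 394 of the chromosome 6 runs. The median distance from the cut was 37 bases for inverted bait-side runs and 21 bases for direct far-side runs with the chromosome 6 bait, and 25 and 41 bases with the chromosome 12 bait. For the fewer inverted far-side runs it was 51 and 237.5 bases at these baits. In the wild-type chromosome 6 libraries 19 direct and 13 inverted far-side runs were found and none on the bait side. Their median distances were 8 and 857 bases. Library 1 with both drugs, which stood apart, matched the bait region in 31.9% of its insertions in this count, against at most 11.1% in the other 6 libraries, so it supplied much of these runs.

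**Figure D5:**
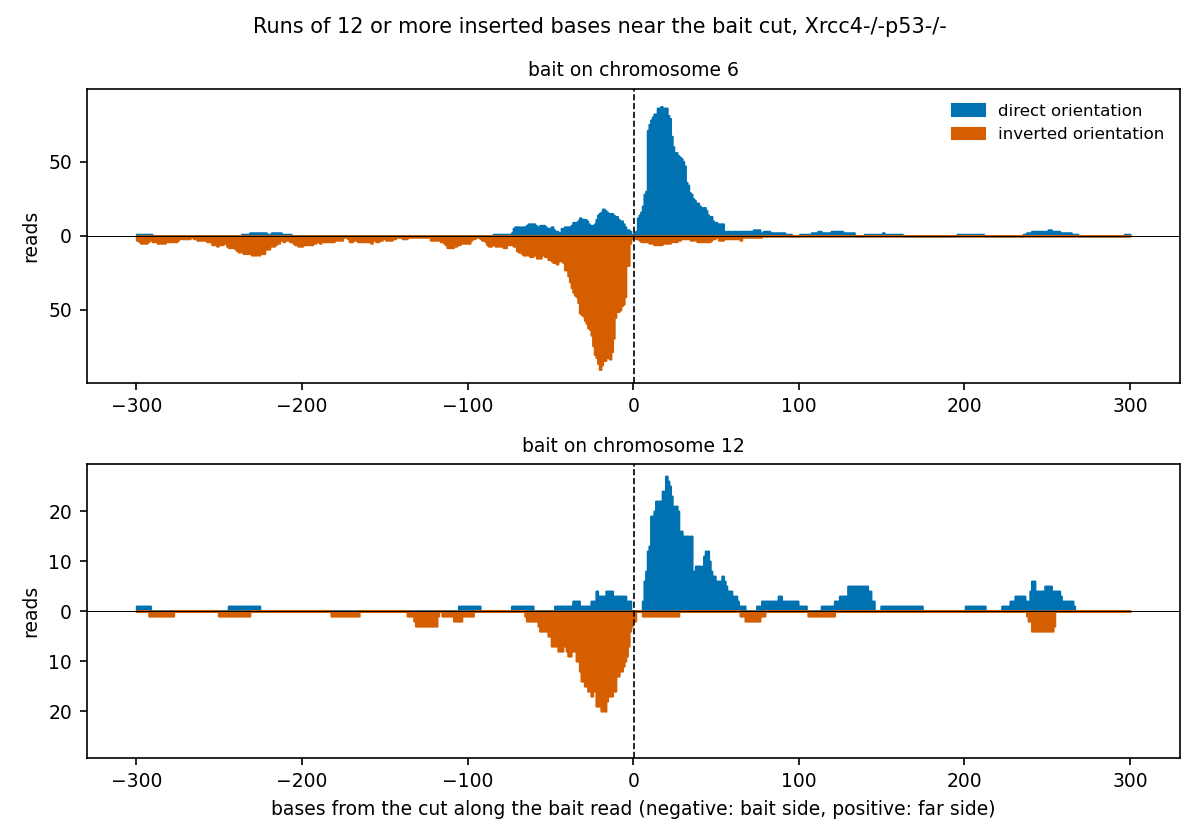
Coverage of the bait regions on chromosomes 6 and 12 by runs of 12 or more inserted bases in Xrcc4-/-p53-/- libraries, in reads per base by distance from the cut (dashed line), with direct runs drawn upward and inverted runs downward. G-run preys and bait-continuous reads are left out and each read counts once. Both baits have a direct peak just past the cut and an inverted peak just before it.

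The far-side runs of the chromosome 6 bait often began at the same base. Of 205 direct runs, 41 began 9 bases past the cut, in 15 libraries and with 22 distinct insertions, and 38 of them followed a bait loss of 6 bases. Read C is one of them. Its last 5 bait bases are the same as the 5 genome bases ahead of the matching run, and 38 of these 41 reads shared 4 or more bases in this way. Such bases shared by the bait end and the genome ahead of a run (micro-homology) were also found at other runs. No chance level was computed for them, and how the matching bases entered the read was not tested. In deficient cells, where the run opened the insertion, 51.1% of 225 direct far-side runs and 47.6% of 248 inverted bait-side runs shared 3 or more bases with the bait end, and 8.44% and 10.5% shared none. The 225 include 40 of the 41 chromosome 6 runs that began 9 bases past the cut.

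Both arrangements were present under every drug at these baits. On chromosome 6 the inverted bait-side and direct far-side runs numbered 212 and 133 in DMSO (both sets), 15 and 29 with ART558, 17 and 11 with aphidicolin and 17 and 32 with both. With the chromosome 12 bait they numbered 17 and 16, then 16 and 20, 12 and 24, and 10 and 13. The direct bait-side and inverted far-side runs of chromosome 6 numbered 34 and 15 in DMSO, 7 and 6 with ART558, 6 and 1 with aphidicolin and 19 and 3 with both, so with both drugs direct runs on the bait side outnumbered inverted ones. The difference in balance between drugs was not tested.

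Matches to the short flanks of the join itself were fewer with ART558 in cells under aphidicolin. This measure counted long insertions with a run of 10 bases that repeats the read's own bait or prey flank. It was 13.99% with aphidicolin and 5.19%, 8.47% and 10.7% with both drugs on chromosome 6. It was 11.6%, 10.2% and 11.3% against 0 of 22 insertions, 7.05% and 6.05% on chromosome 8, and 7.96% and 16.9% against 6.88%, 6.98% and 5.29% on chromosome 12. A count of 0 of 22 allows a share of up to 13.6%, and such limits cover counting error only. The groups of no bait overlapped. The mean difference was −6.20 percentage points (two-sided exact permutation p = 0.0025, adjusted p = 0.0167), and in the chromosome 6 run −5.88 (exact p = 0.5). Without aphidicolin the difference between ART558 and DMSO was 0.27 (exact p = 0.89), and in wild-type cells −1.20 (exact p = 0.816). Matches within 1 kb of the prey also fell by 5.97 percentage points with both drugs (exact p = 0.0125, adjusted p = 0.0227), with −5.45 in the chromosome 6 run (exact p = 0.5). Against DMSO alone ART558 gave −0.80 (exact p = 0.724). Deficient minus wild-type cells gave −6.41 for the prey-locus share (exact p = 0.212, adjusted p = 0.303).

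Most long insertions that could be placed came from elsewhere in the genome. Of 4078 insertions of 20 bp or more, 1509 were found whole in the genome and 1054 exactly once. Among 984 distinct reads with a single placement, the prey continued at that place in 216, of which 167 lay within 10 kb of the bait cut. These, other bait-continuous reads and reads with G-run preys were left out, which left 743. Of those, 510 (68.6%) came from a chromosome that was neither bait nor prey, as in read F, 108 (14.5%) from within 1 kb of the bait cut and 30 (4.04%) from within 1 kb of the prey. The rest came from farther along the bait or the prey chromosome. The share from the bait locus was 21.7% with the chromosome 6 bait and 7.02% with the chromosome 12 bait. No kilobase elsewhere gave more than 2 placements.

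The share of long insertions in translocations into RDCs was not separated from that elsewhere in the main count, and its sign depended on the count. RDC windows of 1 Mb were centred on 107 positions, 42 in constant-timing regions (CTR) and 65 in timing-transition regions (TTR). The study defines more RDCs than these, and any not among the 107 counted as elsewhere here. Lsamp, which the study describes as the strongest RDC of wild-type progenitors, is not among the 107. The windows held 577 of the long insertions (4.94%) and 5.34% of the other translocations. In deficient libraries without aphidicolin the mean share of long insertions was 5.52 ± 3.47% inside and 7.23 ± 3.54% outside (SD, n = 27), lower inside in 18 libraries. With aphidicolin it was 6.27 ± 4.02% and 5.99 ± 2.37% (n = 18), lower inside in 10. In wild-type libraries it was 8.57 ± 7.05% and 10.3 ± 5.75% (n = 15), lower inside in 10. The differences of −1.71, 0.28 and −1.76 percentage points did not pass a two-sided sign-flip permutation test (p = 0.0628, 0.742 and 0.143, adjusted p = 0.14, 0.872 and 0.238). Without G-run preys the means inside and outside were 4.99% and 5.75%, 5.998% and 5.15%, and 5.59% and 6.25%. In deficient cells with aphidicolin the difference passed for preys outside soft-masked sequence (1.63, permutation p = 0.0301), and it turned to −0.14 with windows of 2 Mb and −0.065 for insertions of 20 bp or more. In wild-type cells it passed with each read counted once (−3.72, permutation p = 0.0319) and turned to 1.09 with windows of 0.5 Mb. Windows held few translocations a library, with medians of 121 and 81 in deficient libraries without aphidicolin and in wild-type libraries.

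Of the 107 windows 5 lie on chromosome X, which the definition of a translocation leaves out, and each of the other 102 held at least 1 long insertion. The median over all windows was 4. The share was 6.62% in CTR windows (232 of 3504 translocations) and 6.30% in TTR windows (345 of 5478). The fullest windows, ranked by number, were those of Cdh13, which encodes T-cadherin, with 18 long insertions of 112 translocations, Dcc, the netrin receptor gene, with 17 of 142, and Grip1, which encodes a glutamate receptor scaffold, with 16 of 117. Prkg1, a cGMP-dependent kinase gene, had 16 of 162 and Lrp1b, a lipoprotein receptor gene, 14 of 100. Efna5, an ephrin ligand gene, had 13 of 102. Cadm2, a cell adhesion gene, had 12 of 129, Dock1, a Rac activator gene, 12 of 89, Nrg3, a neuregulin gene, 12 of 141, and Pard3b, a cell polarity gene, 12 of 110. Rbms3 with 12 of 93 and Zbtb20 with 12 of 95 tied with the last 4 of these. The ranking pools genotypes whose shares differ. Wild-type cells gave 9 of 23 in Cdh13, 7 of 46 in Dcc, 6 of 24 in Grip1 and 1 of 17 in Prkg1, and no translocation in Nrg3. Joins on the bait chromosome are left out, so the chromosome 14 libraries could give none in Nrg3 and the chromosome 8 libraries none in Cdh13. Without G-run preys Cdh13 had 4 and Dcc 8, whereas Prkg1 had 15, Lrp1b 14 and Nrg3 12. The Cdh13 window spans chr8:118300001-119300000 and the Nrg3 window chr14:38400001-39400000 (mm10).

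Outside RDC windows, the 100-kb bins with the most long insertions were repeat-rich or held G-run preys. The fullest, chr2:98600001-98700000 with the predicted genes Gm10801 and Gm10800, had 246 long insertions of 2821 translocations in 41 libraries, 219 of them soft-masked and none a G-run. At most 25 came from 1 library (deficient, chromosome 12, aphidicolin), and at most 25 shared a prey position. The bin chr14:19400001-19500000 with Gm21738 had 170 of 2191. These 2 shares, 8.72% and 7.76%, were near the 6.90% of all translocations, so the bins rank high through their many translocations. In chr5:136900001-137000000, 173 of 242 translocations had a long insertion, 171 of these were G-run preys, and 87 shared a single prey position. The bin overlaps Ift22, Fis1, Cldn15, Znhit1 and Plod3. In chr7:130500001-130600000, which overlaps Fgfr2, Ate1, Nsmce4a and Tacc2, 77 of 159 did, all with G-run preys. In chr3:135500001-135600000, which overlaps Manba and Nfkb1, 67 of 103 did, 65 with G-run preys.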

How the data were processed

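LAM-HTGTS junction tables were read for 60 libraries. Per the labels and the study's methods, the authors demultiplexed and trimmed reads, aligned them to mm10 and filtered them with the HTGTS pipeline (versions not given in the sources used here). The deposited tables list 1 junction a line, with genome positions, positions in the read and the read sequence (no count or normalized unit), and replicates were not pooled. In 1 table an incomplete last line was dropped. Sequences and soft-masking came from GRCm38, and RDC positions from the study's supplement.

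Each library was the replicate. Groups were compared by exact permutation of libraries within baits (mean over baits of the difference in means), two-sided as double the smaller tail, and long insertions with other translocations by sign-flip tests with 100000 draws. Benjamini-Hochberg adjustment ran over the 20 tests planned and separately over 20 added. Each library needed 10 long insertions for a mean. Alternatives included 20 bp as the minimum, each prey position once, within-run contrasts, paired replicate numbers and each library left out in turn. The RDC windows named are the first 10 by number of long insertions, ties in alphabetical order, with the 5 fullest bins of 100 kb and the genes nearest the baits. The long-insertion joins and the lists were chosen with earlier results of these data known, and the G-run, bait-continuous, soft-masked, bait-locus and prey-locus measures were chosen after the data were seen. A bait-continuous read has its last 10 inserted bases within 10 kb of the cut and at least 12 of the next 15 bases there equal to the prey. The tests were checked on simulated libraries. Python 3.11.15, numpy 2.4.6, pandas 2.3.3 and scipy 1.17.1 were used.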

Additional observations from a re-analysis of the deposited data

Results flagged for a closer look

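A library lay far from the others of its group in 4 of 35 sets of values tested with Dixon's criterion, which flags about 1 set in 20 by chance. Wild-type library 3 with both drugs and the chromosome 6 bait had 39.2% of long insertions with a 10-base run of the read's own flanks, against 8.89% to 13.4% in the other libraries. In the same library 41.1% of insertions matched within 1 kb of the prey, against 9.09% to 10.5%. Wild-type library 1 with both drugs and the chromosome 6 bait had 39.8% of insertions matching the bait region, against 1.40% to 6.58%. Deficient DMSO library 1 of the chromosome 6 set outside the theta collection had 18.6% with a run of its own flanks, against 7.63% to 11.9%.

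The flank share moved in opposite directions with aphidicolin at different baits. It was 6.52 percentage points higher than in DMSO on chromosome 8 and 5.47 higher on chromosome 12, and on chromosome 14 it was −5.11, with no overlap between groups at these 3 baits. On chromosome 6 it was also higher, at 13.99% in the single aphidicolin library against a mean of 8.28% in the theta-collection DMSO libraries. The difference between the baits was not tested.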

How the results depend on the processing

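Differences are in percentage points, base pairs (length) or bases (loss). Bait loss, the bait-locus share and the bait-continuous share kept direction and call for ART558 against DMSO under every alternative run and with each library left out, as did both drugs against aphidicolin for the share, length, flank, bait-locus, prey-locus and bait-continuous measures when a library was left out. "Reduced set" means without G-run preys and bait-continuous reads and with each read once, chosen after seeing the data, as were its 3 parts alone.

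For ART558 against DMSO the share passed at 20 bp or more (0.68), as percent of all junctions (1.85), with the other chromosome 6 DMSO libraries (2.10) and without bait-continuous reads (1.92). The flank difference turned to −0.35 with runs of 8 bases, −0.41 with the other DMSO libraries, −0.40 within runs, −1.12 without G-run preys, −0.86 without bait-continuous reads and −2.19 in the reduced set. The prey-locus difference turned to 0.076 within runs. For aphidicolin against DMSO the share lost its call without the chromosome 14 bait (−1.11), with the other DMSO libraries (−1.52) and in the reduced set (−0.74), and turned to 0.47 as percent of all junctions. The bait-locus difference lost it without bait-continuous reads (−1.56). For both drugs against aphidicolin, calls were lost within runs, where 1 library faced 3 and no test could pass (share 2.76, length 0.99, flank −5.88, bait-locus −6.82, prey-locus −5.45, bait-continuous −1.67), and for the median length (1 bp). Bait loss passed with each prey position once (6.76) and each read once (6.33). For both drugs against ART558 the share passed as percent of all junctions (0.81) and was −0.042 with each prey position once, the bait-locus difference was 1.32 within runs, and the bait-continuous one −1.39 within runs and −0.047 without G-run preys. In wild-type cells ART558 gave 0.67 (share) and 0.75 (flank) without G-run preys, 0.38 (flank) without bait-continuous reads, 0.22 (length), 0.0044 (loss) and 3.64 (flank) in the reduced set, and −0.090 (prey-locus) with each prey position once. Between genotypes the share lost its call at 20 bp or more (−0.88) and without G-run preys (−1.43), and the length without G-run preys (0.13), turning to −0.040 in the reduced set. The bait-locus difference passed with each read once (7.78), and the prey-locus one without G-run preys (−8.02), with each read once (−6.91) and in the reduced set (−7.81). No within-run value exists between genotypes. RDC differences in deficient cells with aphidicolin were −0.14 with windows of 2 Mb, −0.065 at 20 bp or more and 1.63, which passed, for preys outside soft-masked sequence. In wild-type cells they were 1.09 with windows of 0.5 Mb and −3.72, which passed, with each read once. The sum of squares between baits in DMSO was 17.4 in the reduced set and did not pass.

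Replicate numbers did not pair the libraries over any whole comparison, since same-numbered libraries correlated between −0.81 and 0.79 and above 0.1 in 12 of 42 pairs. The exception within a bait was DMSO against ART558 on chromosome 8, where the 3 pairs had 0.42, 0.37 and 0.47. With same-numbered libraries of every comparison as a replicate block, the share lost its call for both drugs against aphidicolin (1.89) and between genotypes (−2.64), and the prey-locus difference for both drugs (−6.29). Under that block the prey-locus difference between genotypes passed (−9.48), it turned to 1.54 for ART558 against DMSO, and the bait-continuous difference of both drugs from ART558 turned to −0.14. No other call changed under the block.

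With each library left out in turn, ART558 against DMSO ranged from 0.78 to 1.63 (share, past the threshold without chromosome 6 ART558 library 2), 0.20 to 0.58 (length, past it without chromosome 12 DMSO library 2), −1.22 to 1.77 (flank) and −1.65 to 0.53 (prey-locus). Both drugs against aphidicolin ranged from 4.64 to 8.76 (loss, past it without chromosome 12 library 3 or chromosome 6 library 1 with both drugs, or the chromosome 6 aphidicolin library). Both drugs against ART558 ranged from −0.37 to 0.63 (share) and −0.45 to 0.43 (bait-continuous). In wild-type cells the ranges were −2.71 to 1.14 (share), −4.79 to 0.84 (flank), −2.73 to 2.72 (prey-locus) and −1.49 to 0.049 (bait-continuous). Between genotypes they were 1.53 to 8.91 (bait-locus), −8.45 to −3.82 (prey-locus, past it without the deficient chromosome 6 aphidicolin library or wild-type chromosome 6 aphidicolin library 3) and 0.95 to 2.27 (bait-continuous, past it without that deficient library or wild-type library 2 of that group).

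Counts limit these values, since libraries held as few as 28 translocations and 2 long insertions, and 1 library stood for deficient chromosome 6 cells with aphidicolin.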

Other observations

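Of the 743 singly placed insertions of 20 bp or more, 46 lay on the bait chromosome beyond 1 kb from the cut, 7 of them within 10 kb and 9 within 100 kb. In wild-type cells 43 of 53 placed insertions (81.1%) came from a chromosome that was neither bait nor prey, and in deficient cells 467 of 690 (67.7%). These values come from reads without G-run preys that did not continue at the placed site, and the difference was not tested.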
